A study of Macaca mulatta with 4 samples.

Results

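The nuclear factor I (NFI) family comprised 4 of the 30807 genes in the count table, taken by symbol: NFIA (ENSMMUG00000013840), NFIB (ENSMMUG00000014697), NFIC (ENSMMUG00000003439) and NFIX (ENSMMUG00000019292). They were followed in 32565 nuclei, the barcodes with 500 or more detected genes and at most 5% mitochondrial UMIs (unique molecular identifiers, each standing for a captured RNA molecule). Single-nucleus RNA-seq was performed on flash-frozen cerebellar hemispheres and part of the vermis of 4 rhesus macaque fetuses, 1 library per fetus. A control female and a control male, both at 130 days of gestation, were left untreated. An LPS female at 131 days and an LPS male at 133 days had been exposed to 1 mg of intra-amniotic lipopolysaccharide (LPS), a bacterial endotoxin, 5 days earlier, as a model of chorioamnionitis. With 2 fetuses per group, the fetus is the replicate, and the lowest p an exact 2-sided permutation test could give for a single value is 0.333.

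NFI proteins are transcription factors that bind DNA as dimers at a shared palindromic element and can raise or lower transcription. In granule cells (GCs), the small excitatory neurons of the cerebellar cortex, they are known for switching on late programmes of axon growth, migration and dendrite formation. In glia, NFIA, NFIB and NFIX are known for the onset of astrocyte development, where NFIA acts together with SOX9.

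Libraries differed in depth and in more than treatment. The median nucleus held 4508 UMIs in the control female and 4063 in the LPS female, against 1882 in the control male and 2308.5 in the LPS male. Between 38.7% (LPS male) and 73.9% (both females) of all UMIs lay in nuclei. Any pair of libraries shared 16 to 21 barcodes (0.23% to 0.28% of the smaller library), where 7.91 to 11.7 were expected by chance. Of the 22432 granule nuclei, the mature stage took 34.8% in the LPS male and 8.42% to 10.2% in the other 3 libraries. Sex, depth and any batch that separated the female from the male libraries cannot be told apart. The nuclei fell into 22 clusters built without the 4 NFI genes, of which 18 carried a class name from marker genes and had 10 or more nuclei in every library. Leading genes included GABRA6 in mature GCs, GFAP in astrocyte-like, PAX2 and GAD1 in PAX2+ interneuron-like, and CA8 and ITPR1 in Purkinje cell-like nuclei. Levels are given as CPM, the UMIs of a gene summed over the nuclei of a class in a library and scaled to the total UMIs of that sum. CPM of different NFI genes are not compared, because the counts were not scaled to gene length. A changed mix of nuclei and a changed level per nucleus cannot be told apart from such a sum alone.

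Along the granule lineage, NFIA and NFIB were highest in migrating GCs and lowest in the classes with late markers, in every library. In proliferating precursors NFIA stood at 4273 CPM in the control female, 3435 in the control male, 4521 in the LPS female and 3560 in the LPS male. In migrating GCs it stood at 5958, 4699, 6162 and 4510 CPM in the same order. In mature GCs it stood at 2209, 1579, 1957 and 1613 CPM. The migrating values all lay above the mature values, and the step from precursors to migrating GCs was upward in 4 of 4 libraries. Within a library, the log2 ratio of migrating GCs to precursors was 0.43 ± 0.06 (SD, n = 4) and that of mature to migrating GCs was -1.54 ± 0.10.

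NFIB, the partner of NFIA in much of the developing brain, followed the same course with a steeper descent. Proliferating precursors held 3721 CPM in the control female, 1981 in the control male, 3947 in the LPS female and 2169 in the LPS male. Migrating GCs held 5475, 2824, 5580 and 3050 CPM. Mature GCs held 1175, 670 and 1189 CPM in the first 3 libraries and 744 in the LPS male. The mature to migrating ratio was -2.14 ± 0.10 on the log2 scale, a 4.41-fold lower level. In the order of classes used here, each of the 4 steps from migrating GCs to mature GCs was downward in 4 of 4 libraries. That order was assigned without fitting a trajectory, and it includes classes without a stage name. For NFIA the last step, from the TRPC7 HCRTR2 granule cluster into mature GCs, was 0.05 ± 0.09 and upward in 2 of 4 libraries.

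NFIC, the most broadly expressed member of the family in adult tissues, had no peak in migrating GCs. Its highest granule level was in proliferating precursors, with 219 CPM in the control female, 554 in the control male, 232 in the LPS female and 426 in the LPS male. Mature GCs held 42.3, 159, 47.5 and 111 CPM. The males lay above the females at both stages. The step from precursors to committing GCs was -0.76 ± 0.17 on the log2 scale, downward in 4 of 4 libraries, and the whole distance from precursors to mature GCs was -2.08 ± 0.27.

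NFIX, known in mice for the timing of granule neuron and stem cell differentiation, changed least between precursors and migrating GCs. Precursors held 416 CPM in the control female, 602 in the control male, 330 in the LPS female and 651 in the LPS male, and the migrating to precursor ratio was 0.07 ± 0.16 on the log2 scale. Mature GCs held 223, 305, 172 and 381 CPM. From precursors to mature GCs the log2 ratio was -0.89 ± 0.09, downward in 4 of 4 libraries.

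**Figure D1:**
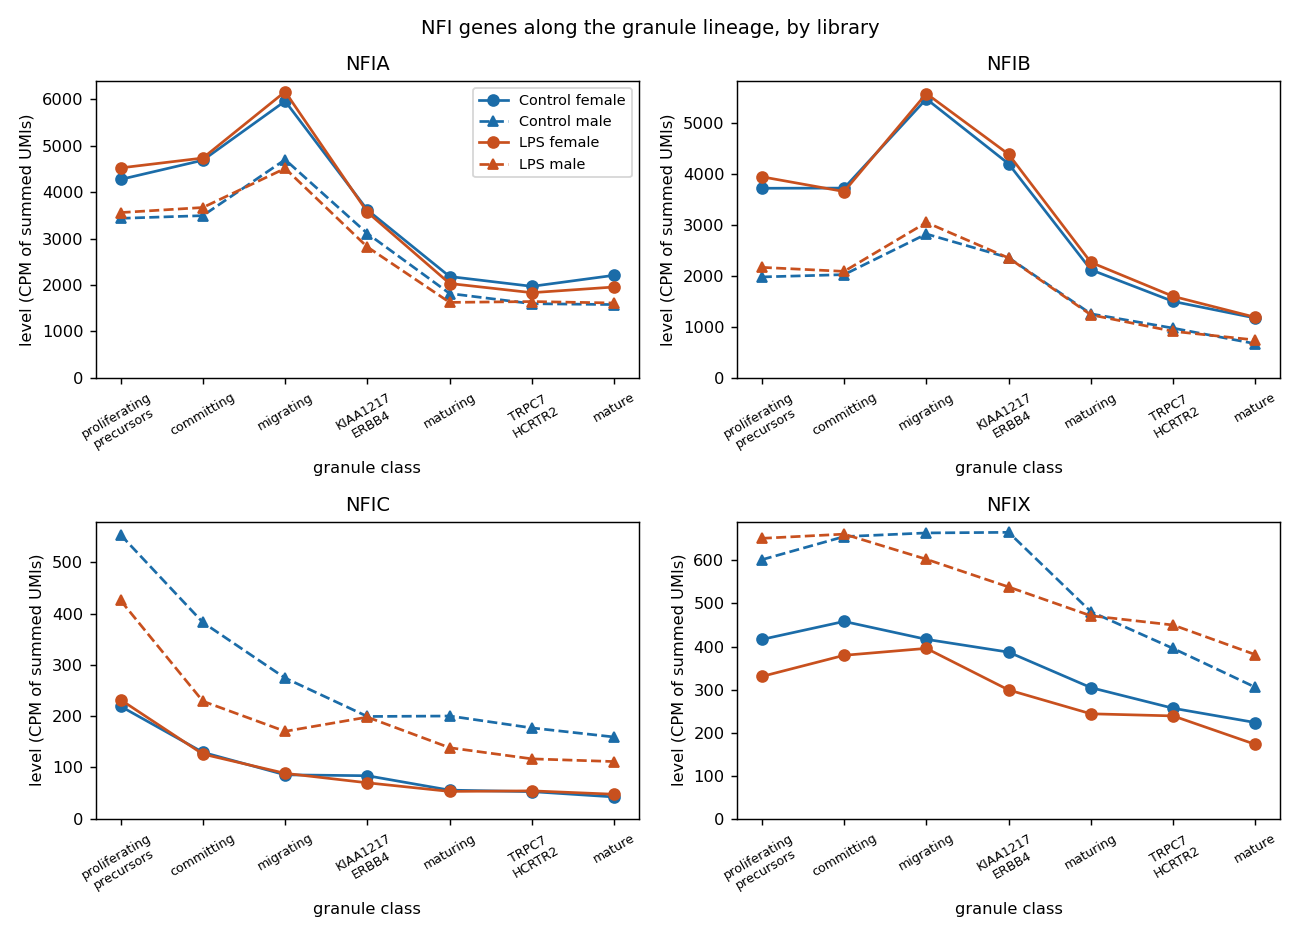
Level of each NFI gene (vertical axis, CPM of summed UMIs, from 0) in the 7 granule classes (horizontal axis), one line per library, blue for Control and orange for LPS, solid with circles for females and dashed with triangles for males. NFIA and NFIB peak in migrating GCs, NFIC descends from proliferating precursors, and the lines pair by sex: NFIB in migrating GCs lies at 5475 and 5580 CPM in the females and at 2824 and 3050 in the males.

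The same mature to precursor ratio, taken over all 4242 genes with a mean of 50 CPM or more, had a median of -0.29, and 52.1% of those genes were lower in mature GCs in 4 of 4 libraries. The 4 NFI genes, at -1.11, -1.62, -2.08 and -0.89, all lay below that median. For migrating GCs over precursors, the median over 4219 genes was -0.10, and 29.1% of genes were higher and 41.9% lower in 4 of 4 libraries. For mature against migrating GCs, the median over 3873 genes was -0.18 and 45.4% of genes were lower in 4 of 4 libraries. These ratios are descriptions without a test, since the classes were defined on the same nuclei. With TMM scaling (a trimmed mean that sets the bulk of genes level) the mature to precursor ratios were -0.80 for NFIA, -1.32 for NFIB, -1.78 for NFIC and -0.59 for NFIX. Of the 7 classes, 2 carried no stage name because no stage list scored clearly. The first, led by KIAA1217 and ERBB4, scored highest on the migrating and then the maturing list, and the other, led by TRPC7 and HCRTR2, on the mature and then the maturing list.

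The share of nuclei with at least 1 UMI had the same order once each nucleus was thinned to 1000 UMIs. For NFIA it was 97.2% to 99.4% of migrating GCs and 75.1% to 87.3% of mature GCs. For NFIB it was 90.4% to 99.3% of migrating and 43.4% to 65.4% of mature GCs. Unthinned, NFIB was seen in 66.2% to 98.7% of mature GCs. At this depth a missing UMI does not show that a nucleus lacked the transcript. Thinned shares in Purkinje cell-like nuclei, which had the lowest mean level of both genes, were 18.2% to 40.0% for NFIA and 9.26% to 33.3% for NFIB.

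Genes known to be controlled by NFI proteins in granule neurons differed in their course. Of the 8 listed, CNTN2, an axonal adhesion molecule of young GCs, averaged 105 CPM in precursors, 437 in migrating GCs and 56.8 in mature GCs. EPHB1, an ephrin receptor, averaged 306 CPM in precursors and 1052 in mature GCs, and ETV1, a transcription factor of late GCs, 35.3 and 320. GABRA6, the GABA-A receptor subunit that marks mature GCs, averaged 66.4 CPM there (28.9 to 124) and 4.47 in migrating GCs, and GRIN2C, an NMDA receptor subunit, 31.5 (6.06 to 78.7) and 0.717. The cell adhesion gene CDH2 averaged between 431 and 574 CPM across precursors, migrating, maturing and mature GCs (276 to 749 in single libraries). WNT7A averaged at most 1.94 CPM in the same classes, with up to 4.75 in a single library, and NET1 averaged 35.1 CPM in precursors and 16.3 in mature GCs. CNTN2 and GABRA6 were also among the markers that named the stages.

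In astroglia, NFI levels lay close to those of the granule lineage as a whole. NFIA stood at 3360 CPM in the control female, 2719 in the control male, 3522 in the LPS female and 2272 in the LPS male, and the astroglia to granule log2 ratio was 0.08 ± 0.02, above 0 in 4 of 4 libraries. The same ratio was -0.13 ± 0.10 for NFIB, below 0 in 4 of 4 libraries. Over 4148 genes, 35.4% were higher and 38.9% lower in astroglia in 4 of 4 libraries, so the sign alone sets neither gene apart. It was 0.12 ± 0.31 for NFIC and -0.17 ± 0.19 for NFIX, and for both genes the libraries differed in sign. Within astroglia, Bergmann glia-like nuclei, the radial glia of the cerebellar cortex, differed from astrocyte-like nuclei. NFIB was lower in Bergmann glia-like nuclei (2042, 1160, 1956 and 1078 CPM against 3696, 1962, 3489 and 1438), a log2 ratio of -0.72 ± 0.20 with the same sign in 4 of 4 libraries. NFIX was lower too, at -0.41 ± 0.15, while NFIC was higher in Bergmann glia-like nuclei by 0.37 ± 0.18, each in 4 of 4 libraries. The share over all genes was not taken for this pair of classes, so the sign alone sets none of these genes apart. NFIA differed little, at -0.14 ± 0.12. In a proliferating cluster with glial markers NFIC averaged 324 CPM, beside 358 CPM in proliferating granule precursors.

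Genes known as astroglial targets of NFI were measured in the same sums. Of 9 listed, 7 had a row under the symbol used here, and FABP7 and APCDD1 were not analysed here. In mean CPM, 6 of the 7 were higher in astroglia than in the granule lineage: the intermediate filament gene GFAP (320 against 5.93), MMD2 (689 against 73.0), ZCCHC24 (89.7 against 5.89), the Notch effector HES1 (119 against 3.32), ALDH1L1 (61.3 against 1.25) and the water channel AQP4 (230 against 23.5). EZH2, the histone methyltransferase of the Polycomb complex, was lower in astroglia, at 111 against 196 CPM, with 711 CPM in proliferating precursors. Several of these genes are astroglial markers, so their level is not independent of the class names. The share over all genes was not taken for mean CPM, so the count alone does not set these genes apart. Among partners, regulators and antagonists, MEIS1 averaged 1419 CPM in astroglia and 785 in the granule lineage, ZBTB20 720 and 400, and SOX9, the glial partner of NFIA, 5.65 and 0.932. SOX10 was not analysed here.

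Among inhibitory interneurons NFIA and NFIB were highest in the least mature class. PAX2+ interneuron-like nuclei, the migrating precursors of this lineage, held 3970 CPM of NFIA in the control female, 3728 in the control male, 4353 in the LPS female and 2294 in the LPS male. Molecular layer interneuron-like nuclei held 1076, 1023, 1446 and 876 CPM, and Golgi cell-like nuclei 601, 820, 990 and 475. The PAX2+ values lay above all values of the other classes, and the log2 ratio of molecular layer to PAX2+ nuclei was -1.68 ± 0.24. For NFIB the Golgi cell-like level was 215, 257, 258 and 269 CPM, a log2 ratio to PAX2+ nuclei of -3.33 ± 0.73. The free RNA estimated in Golgi cell-like nuclei would by itself bring 258, 228, 215 and 184 CPM of NFIB, so this level lay about the background and the ratio has no exact size. For NFIA it would bring 171 to 345 CPM, below the measured level in 4 of 4 libraries. NFIX was lower as well (-0.53 ± 0.17 for molecular layer and -1.69 ± 0.68 for Golgi cell-like nuclei, 4 of 4 libraries each), while NFIC was at 0.11 ± 0.20 in molecular layer and at -0.46 ± 0.20 in Golgi cell-like nuclei, the latter lower in 4 of 4 libraries. Golgi cell-like nuclei numbered 15 in the LPS male and 42 to 85 elsewhere. The share over all genes was not taken for the contrasts with PAX2+ nuclei, so their signs alone set no gene apart. Over all interneurons against the granule lineage, NFIC was at -0.88 ± 0.20 and NFIX at -0.39 ± 0.04, lower in 4 of 4 libraries, beside 37.0% of 3988 genes and a median of -0.07.

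Oligodendrocyte-like nuclei carried less NFIA and NFIB than astroglia. NFIA stood at 1033 CPM in the control female, 1113 in the control male, 964 in the LPS female and 1129 in the LPS male, and the log2 ratio to astroglia was -1.47 ± 0.39. For NFIB it was -1.35 ± 0.25. Estimated free RNA made up 12.5% to 29.7% of the UMIs in these nuclei, and after its subtraction the ratios were -2.05 and -2.26. NFIC and NFIX were at -0.49 ± 0.45 and -0.42 ± 0.23. All 4 genes were lower in 4 of 4 libraries, beside 33.2% of 4136 genes and a median of -0.07. For NFIC the log2 ratio in the control female was only -0.0077, close to no difference.

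The 464 oligodendrocyte-like nuclei held 3 sub-clusters with 10 or more nuclei in every library, and among these NFIA and NFIB were highest in the one marked by PDGFRA, the receptor of oligodendrocyte precursors. NFIA there stood at 1137, 1510, 1461 and 1196 CPM in the control female, control male, LPS female and LPS male. In nuclei with BCAS1 and ENPP6, markers of newly formed oligodendrocytes, it stood at 687, 716, 692 and 935 CPM. Where MBP, the myelin basic protein gene, was present as well, it stood at 523, 388, 196 and 632 CPM. The free RNA estimated over all oligodendrocyte-like nuclei would by itself bring 365, 544, 222 and 714 CPM of NFIA and 447, 361, 279 and 481 CPM of NFIB. In the sub-cluster with MBP the measured level lay below that in 3 of 4 libraries for NFIA and in 2 of 4 for NFIB, so it lay about the background. Its NFIA values rest on 28 to 94 UMIs per library. Each step was downward in 4 of 4 libraries for NFIA and for NFIB, and the share over all genes was not taken. In nuclei with BCAS1 and ENPP6, NFIB stood at 773, 296, 770 and 486 CPM, about or below the background in both males. The second NFIB step of the males thus ran between levels about the background. From the first to the last sub-cluster the log2 ratios were -1.72 ± 0.90 for NFIA and -1.59 ± 0.27 for NFIB. They have no exact size, because the last level lay about the background. NFIC was at -1.35 ± 0.87 over the same distance, lower in 4 of 4 libraries, with a first step of 0.25 ± 0.43 that was lower in 1 of 4, and rests on 2 to 10 UMIs per library in the last sub-cluster. NFIX was at -0.14 ± 0.44, lower in 2 of 4 libraries. These sub-clusters held 181, 58 and 67 nuclei. A further sub-cluster, with 14830 to 19764 CPM of MBP, had 84 nuclei, of which 57 came from the LPS male, and too few in both the control male and the LPS female for a level. NFIA there stood at 934 CPM in the control female and 696 in the LPS male, the latter below the 714 CPM that free RNA would bring in that library. A further pair of sub-clusters, of 37 nuclei each, held more NFIA than the PDGFRA sub-cluster where a level could be given: 1936 CPM in the control female and 1945 in the LPS male in the one with TOP2A, a gene of dividing cells, and 1801 in the LPS male in the other.

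**Figure D2:**
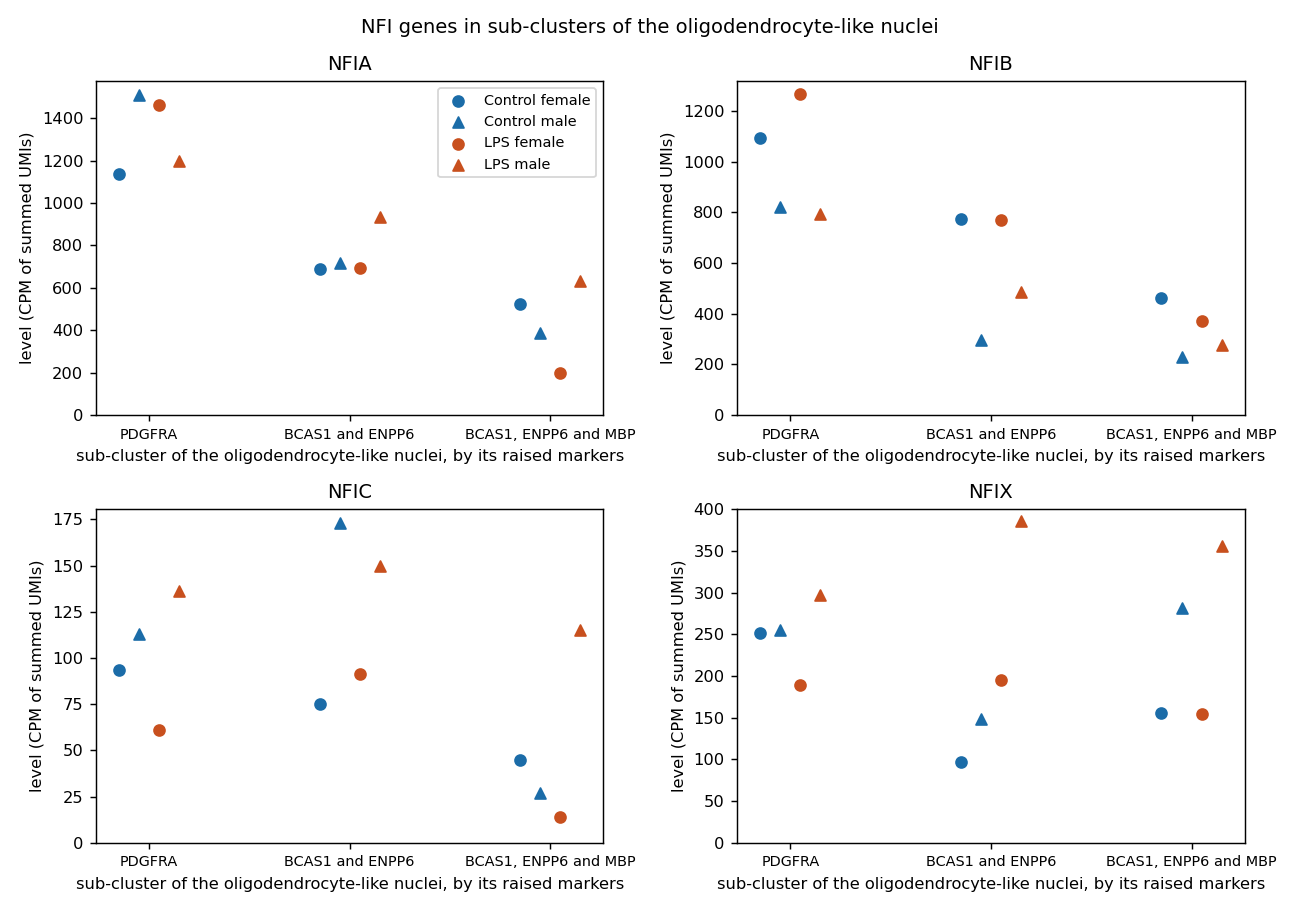
Level of each NFI gene (vertical axis, CPM of summed UMIs, from 0) in the 3 sub-clusters of oligodendrocyte-like nuclei with 10 or more nuclei in every library, ordered by their markers (horizontal axis), one point per library. NFIA lies between 1137 and 1510 CPM in the PDGFRA sub-cluster and between 196 and 632 CPM in the sub-cluster with MBP, about the 222 to 714 CPM that free RNA alone would bring to oligodendrocyte-like nuclei.

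The order of all 18 classes put migrating GCs first and Purkinje cell-like nuclei last for both NFIA and NFIB. NFIC was first in proliferating precursors and last in Golgi cell-like nuclei, and NFIX was first in committing GCs and last in Purkinje cell-like nuclei. Across libraries most neighbours in these orders overlapped: the ranges were separate in 1 of 17 neighbouring pairs for NFIA, between the TRPC7 HCRTR2 granule cluster and endothelial-like nuclei, and in 1 of 17 for NFIB, between microglia-like and Golgi cell-like nuclei. No neighbouring pair was separate for NFIC or NFIX. Within libraries, where classes are paired, neighbours kept 1 order in 4 of 4 libraries in 6 of 17 pairs for NFIA, 7 for NFIB, 2 for NFIC and 3 for NFIX. Migrating over committing GCs, the top pair of NFIA, was at 0.36 ± 0.05. Microglia-like nuclei, the immune cells of the brain, ranked 3 of 18 for NFIC (209, 525, 214 and 251 CPM) and 15 of 18 for NFIX (75.5, 110, 71.5 and 295 CPM).

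Purkinje cell-like nuclei, the output neurons of the cortex, held 94.1 CPM of NFIA in the control female, 143 in the control male, 155 in the LPS female and 529 in the LPS male, from 58, 56, 71 and 65 UMIs. NFIB stood at 92.5, 94.6, 125 and 318 CPM. In barcodes with at most 100 UMIs, which hold free RNA, NFIA stood at 1775 to 2562 CPM and NFIB at 1620 to 2506. Free RNA was estimated at 4.55%, 7.93% and 6.19% of the Purkinje UMIs in the first 3 libraries and at 11.5% in the LPS male, which had 15 such nuclei. By itself it would bring 93.2, 203, 110 and 276 CPM of NFIA and 114, 135, 138 and 186 CPM of NFIB. The measured level lay below that for NFIB in 3 of 4 libraries and for NFIA in the control male, so there the levels are read as background. NFIX stood at 9.73, 25.6, 19.7 and 73.3 CPM, where free RNA alone would bring 17.6, 23.0, 22.0 and 35.1. Outside the LPS male the NFIX level thus lay about the background.

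**Figure D3:**
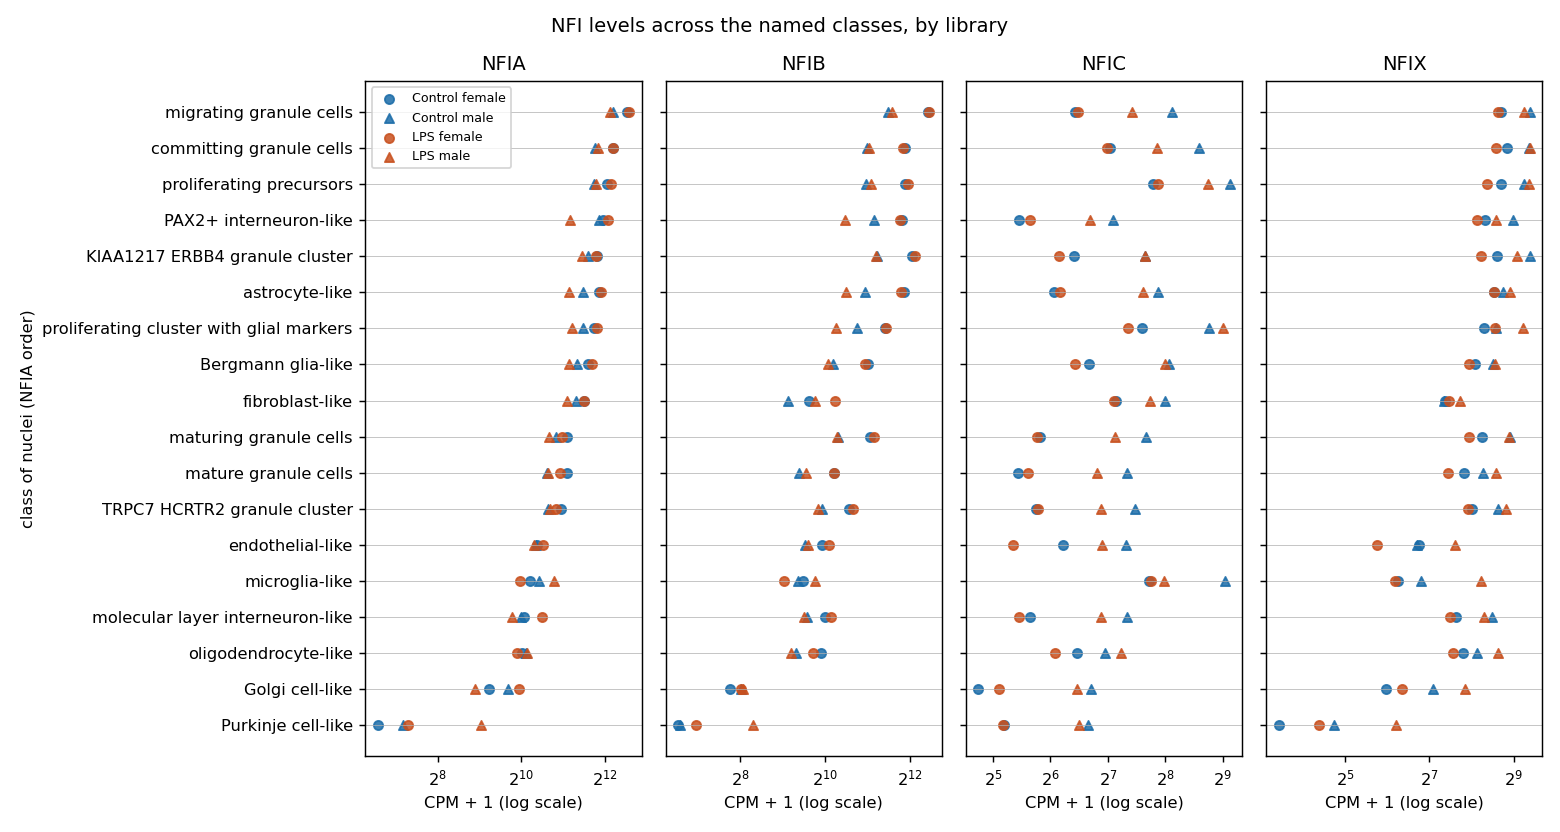
Level of each NFI gene (horizontal axis, CPM + 1 on a log scale) in the 18 named classes with 10 or more nuclei per library (vertical axis, in the order of NFIA), one point per library, blue for Control, orange for LPS, circles for females and triangles for males. Migrating GCs top NFIA at 4510 to 6162 CPM and Purkinje cell-like nuclei close it at 94.1 to 529 CPM.

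Levels of all 4 genes split by the sex of the fetus in most classes. NFIA was higher in both female than in both male libraries in 14 of 18 classes and higher in both males in 2, the oligodendrocyte-like and microglia-like nuclei. NFIB was higher in both females in 14 of 18 classes. NFIC was higher in both males in 18 of 18 and NFIX in 16 of 18. Over all genes with a mean of 50 CPM or more, pooled over the same 18 classes, 25.7% were higher in both females and 38.6% in both males. In the granule lineage as a whole these shares were 30.3% and 42.8%. A split in either direction was thus common among genes at large. The 18 classes come from the same 4 libraries, so the counts over classes are not independent. Sex, depth and any batch cannot be told apart here. Free RNA did not repeat the split for each gene. For NFIA it held 2048 and 1775 CPM in the control and LPS female and 2562 and 2402 in the control and LPS male. For NFIX it held 386 and 355 against 289 and 305. Both were opposite to the nuclei in most classes. In oligodendrocyte-like and microglia-like nuclei, NFIA had the same direction as free RNA. To oligodendrocyte-like nuclei free RNA alone would bring 365 and 222 CPM of NFIA in the females and 544 and 714 in the males. Its part was not tested. NFIB (2506 and 2233 against 1696 and 1620) and NFIC (54.7 and 52.1 against 193 and 78.0) had the same direction as in nuclei.

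Exposure to LPS gave no difference in any NFI gene that passed the test. In the granule lineage NFIA stood at 3144 and 2597 CPM in the control female and male and at 3286 and 2165 in the LPS female and male. NFIB stood at 2767 and 1618 CPM in controls and at 3047 and 1307 after LPS. NFIC stood at 82.1 and 256 against 87.9 and 157 CPM, and NFIX at 330 and 521 against 287 and 472. Control and LPS values overlapped for all 4 genes, where 12.3% of the 14903 genes tested had groups that did not overlap. The log2 fold changes, LPS over Control, were -0.08 ± 0.40 (SE) for NFIA, -0.03 ± 0.58 for NFIB, -0.43 ± 0.59 for NFIC and -0.15 ± 0.38 for NFIX, each with an adjusted p of 1.00 (edgeR quasi-likelihood, Benjamini-Hochberg over all genes tested, n = 2 per group). Calls needed a log2 fold change beyond 0.25 in either direction together with an adjusted p below 0.1. None of the 14903 genes was called (0%), 27 had an unadjusted p under 0.05, and DESeq2 called 0.

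Within granule stages the LPS and Control libraries of the same sex lay close together for NFIA and NFIB. In all 7 granule classes, both the female and the male log2 difference stayed within 0.2 of 0 for these genes. The largest was 0.17 for NFIA and 0.15 for NFIB. How many genes at large stayed within that limit was not counted. In the whole lineage the male difference was -0.26 for NFIA and -0.31 for NFIB, where the LPS male had 34.8% of its granule nuclei in the mature stage. The 5 named stages were also set at equal weight in every library. Fitted over both sexes, the log2 fold change was then 0.0045 for NFIA and 0.05 for NFIB. All 7 classes without weights gave -0.08 and -0.03 in the same fit. The part of the stage mix was not tested. NFIC differed between males in 6 of the 7 classes by -0.38 to -0.74 and by -0.01 in the KIAA1217 ERBB4 cluster, while the female difference lay between -0.26 and 0.16. For NFIX the female difference was below 0 in 7 of 7 classes, from -0.37 to -0.07, and the male difference ran from -0.30 to 0.32. The 7 classes come from the same libraries, so they are not replicates. The share of genes at large with the same sign in all 7 was not taken.

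**Figure D4:**
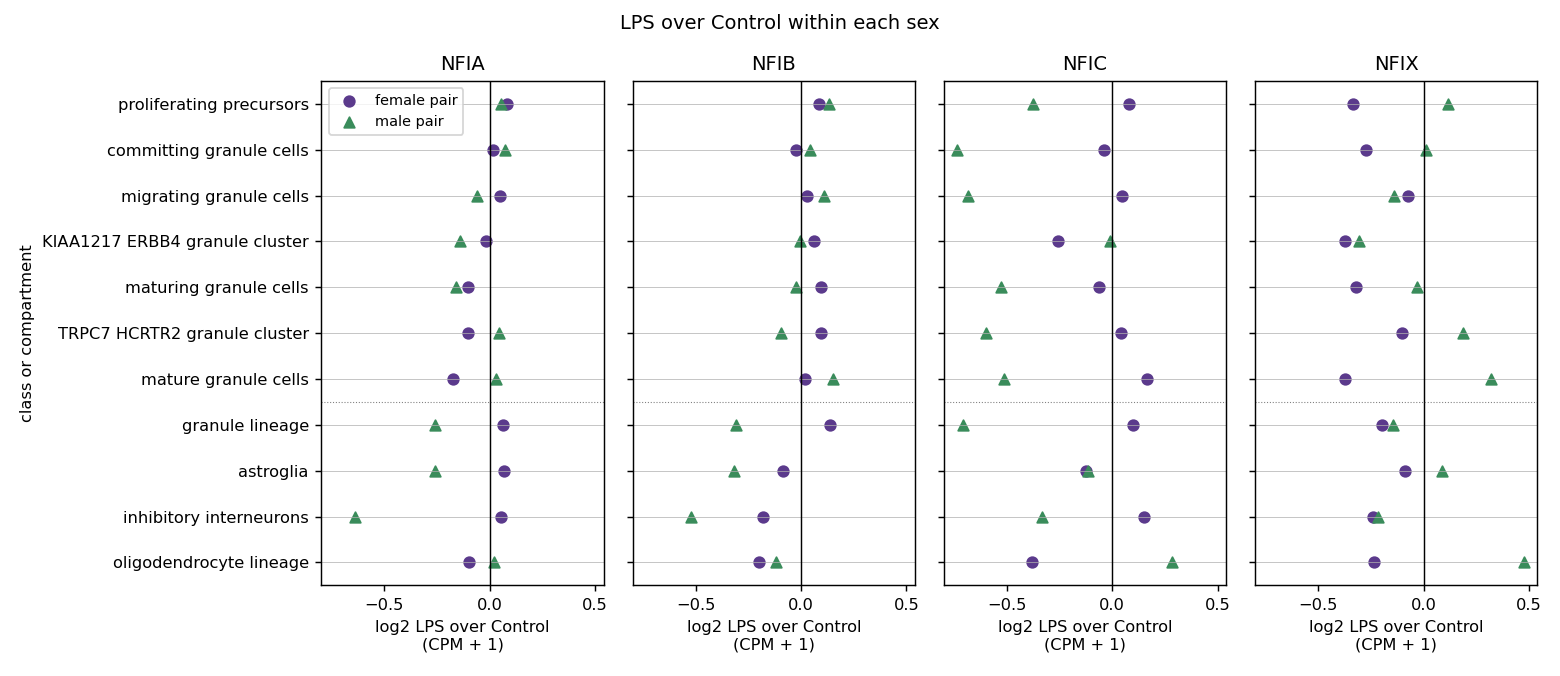
Log2 ratio of LPS to Control (horizontal axis, CPM + 1) within the female pair (circles) and the male pair (triangles) of libraries, for the 7 granule classes above the dotted line and the 4 summed compartments below it (vertical axis). NFIA and NFIB stay within 0.2 of 0 in every granule class, while the male pair lies at -0.64 for NFIA in inhibitory interneurons.

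In astroglia the log2 fold changes were -0.07 ± 0.49 (SE) for NFIA, -0.18 ± 0.60 for NFIB, -0.10 ± 0.62 for NFIC and 0.01 ± 0.30 for NFIX. In oligodendrocyte-like nuclei they were -0.04 ± 0.43, -0.17 ± 0.46, 0.05 ± 0.44 and 0.20 ± 0.41 in the same order. Interneurons gave -0.24 ± 0.50, -0.31 ± 0.57, -0.21 ± 0.62 and -0.24 ± 0.37. All 12 adjusted p-values were 1.00 by the same edgeR test, with 2 libraries per group, and the groups overlapped in all 12, where 15.9% of genes in astroglia, 20.9% in oligodendrocyte-like nuclei and 16.6% in interneurons had groups apart. Among 11850, 8014 and 11094 genes tested, 0 were called in each (0%), with 39, 66 and 37 genes at an unadjusted p under 0.05. DESeq2 called 0, 1 and 0 genes.

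PAX2+ interneuron-like nuclei of the LPS male held 2294 CPM of NFIA against 3728 in the control male, a log2 difference of -0.70, and 1417 against 2250 CPM of NFIB, a difference of -0.67. The female differences were 0.13 and -0.05. Free RNA was estimated at 26.3% of the UMIs in these nuclei in the LPS male and at 15.8% in each of the other 3 libraries, and its part was not tested. Molecular layer interneuron-like nuclei made up 76 of the 366 interneurons of the LPS male and 69 of the 613 of the control male.

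Over the 18 classes, Control and LPS levels were apart for NFIA in 1 class (Purkinje cell-like nuclei, where 15.8% of genes were apart), for NFIB in 3, for NFIX in 1 and for NFIC in 0, beside 16.3% of genes pooled over the classes. NFIB was higher after LPS in Purkinje cell-like, Golgi cell-like (15.1% of genes apart) and fibroblast-like nuclei (26.7%), and NFIX in fibroblast-like nuclei. In the Purkinje and Golgi cell-like classes the NFIB levels lay about the free RNA background, except in Purkinje cell-like nuclei of the LPS male. The Purkinje NFIA levels of both controls lay about or below it as well (94.1 CPM against 93.2 in the female and 143 against 203 in the male). In fibroblast-like nuclei NFIB stood at 788 and 562 CPM in the control female and male. It stood at 1191 and 868 after LPS, differences of 0.60 and 0.63 within the sexes. Free RNA alone would bring 519 and 237 CPM there in the control female and male and 563 and 289 after LPS. Its part was not tested, and the LPS male had 40 such nuclei. By class the share of genes apart ran from 9.82% to 26.7%, so the NFIB count of 3 of 18 lay near what genes at large gave.

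None of the listed NFI targets and partners was called in any of the 4 compartments. In the granule lineage 6 of the 8 granule targets had a fitted log2 fold change above 0, beside 51.6% of all genes, with a median of 0.31 beside 0.01. The sexes differed in sign for all but WNT7A, which was at 0.19 in each pair. Within the female pair 3 of the 8 were higher after LPS (CNTN2, WNT7A and NET1). CDH2, EPHB1, GABRA6, GRIN2C and ETV1 were lower there, while all 5 were higher within the male pair. CNTN2 and NET1 were lower within the male pair, at -0.55 and -0.85. The largest values were those of the LPS male: GABRA6 stood at 11.8 and 5.16 CPM in the control female and male, 7.98 in the LPS female and 57.5 in the LPS male. GRIN2C stood at 1.72 to 4.83 CPM in the other 3 libraries and at 34.1 in the LPS male, and ETV1 at 62.4 to 108 and at 325. The mature share moved with them, a part that was not tested. The median of the 7 astroglial targets in astroglia was 0.06, with 4 higher and 3 lower, beside 0.01 over all genes. The 5 partners tested there had a median of 0.03.

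By Pearson correlation of the mean log2 level over 16 classes with 20 or more nuclei per library, among 4362 genes, the genes most like NFIA were ENSMMUG00000013763 (PBX3 in the gene table, r = 0.93), the autophagy kinase gene ULK1 (0.93) and ANTXR2 (0.90). The same PBX3 row was closest to NFIB (0.92), followed by IRAK1BP1 (0.90) and NFIA (0.89). ZNF410 (0.93), GPATCH2L (0.92) and the importin gene KPNB1 (0.92) were closest to NFIC, and APBA2 (0.95), PHF21B (0.92) and FSD1L (0.91) to NFIX. NFIC was least like its relatives, at 0.38 with NFIA, 0.20 with NFIB and 0.12 with NFIX. The 16 points share libraries and depth, and the correlations are descriptions.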

How the data were processed

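Nuclei from 4 fetal cerebella were captured with 10x Genomics 3' v3.1 reagents. The study's methods name Cell Ranger 5.0, run on Mmul_8.0.1 with introns included (the processing notes name Cell Ranger 4), and the counts deposited by the authors are whole, unnormalized UMI counts per gene and barcode, from which empty barcodes had not been removed. Strand handling, and reads shared with close copies, were not given in the sources used here.

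From these counts, barcodes were kept where 500 or more genes were detected and mitochondrial genes took no more than 5% of UMIs. Scrublet (scanpy 1.11.5) called doublets, 410 to 553 per library. Its own threshold called 0% in both males, so the median threshold of the females was used there, and doublets were removed only as an alternative. Seurat 5.3.0 integrated the libraries on 2000 features without the NFI genes (30 dimensions, resolution 0.5). Clusters were named from marker lists, and a low-UMI cluster (1872 of its 2421 nuclei from the LPS male) and a doublet-rich cluster stayed unnamed and outside all comparisons. Counts were summed per class and library. Differences between classes are mean ± SD of within-library log2(CPM + 1) ratios, without a test. LPS against Control was tested with edgeR 4.0.16 (filterByExpr, TMM, quasi-likelihood), also tested on simulated data, and with DESeq2 1.42.0 as an alternative. Free RNA was estimated from barcodes with at most 100 UMIs and markers of other cell types. Named genes were the members, 3 lists of known targets and partners, and the 3 genes most like each member. Members, lists and markers were chosen with earlier results of these data known. Promoter motifs and sequences were not analysed here.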

Additional observations from a re-analysis of the deposited data

Results flagged for a closer look

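In 10 of the 16 member comparisons the female and the male pair of libraries moved in opposite directions, with 1 library per sex and group. The difference between the sexes was not tested. The same share over all genes was not taken, so the count does not set the NFI genes apart. In the granule lineage, the log2 ratio of LPS to Control for NFIA was 0.06 in females and -0.26 in males (male minus female -0.33), that for NFIB was 0.14 in females and -0.31 in males (male minus female -0.45) and that for NFIC was 0.10 in females and -0.71 in males (male minus female -0.80). In astroglia, the log2 ratio of LPS to Control for NFIA was 0.07 in females and -0.26 in males (male minus female -0.33) and that for NFIX was -0.09 in females and 0.09 in males (male minus female 0.18). In the oligodendrocyte lineage, the log2 ratio of LPS to Control for NFIA was -0.10 in females and 0.02 in males (male minus female 0.12), that for NFIC was -0.38 in females and 0.28 in males (male minus female 0.66) and that for NFIX was -0.23 in females and 0.48 in males (male minus female 0.71). In inhibitory interneurons, the log2 ratio of LPS to Control for NFIA was 0.05 in females and -0.64 in males (male minus female -0.69) and that for NFIC was 0.15 in females and -0.33 in males (male minus female -0.48).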

How the results depend on the processing

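With 2 fetuses per group and LPS fetuses older by 1 to 3 days, age and treatment cannot be told apart, and standard errors of 0.30 to 0.62 on the log2 scale bound what the member tests could show. Over 208 alternative fits of the 16 member tests none passed the threshold, 159 kept the direction and 49 had the other sign. Alternatives were run for 4 class differences (mature GCs over precursors, astroglia and interneurons over the granule lineage, and oligodendrocyte-like nuclei over astroglia), and 127 of their 128 values kept the direction. The other class and sub-cluster differences had no alternative. The cause was not tested unless stated.

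The labels carry no replicate numbers, so the pairing used the sex of the fetus. With the sex block the count of called genes was 0 in the granule lineage, astroglia and interneurons and 21 in oligodendrocyte-like nuclei, none an NFI gene. The block turned NFIX in astroglia to -0.0033 and NFIC in oligodendrocyte-like nuclei to -0.0392.

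Without a filter on low counts 11 genes were called in astroglia, 9 in oligodendrocyte-like nuclei and 12 in interneurons, and DESeq2 called 1 in oligodendrocyte-like nuclei. Leaving out each library in turn gave 0 to 0 called genes in the granule lineage, 0 to 3 in astroglia (3 without the LPS male), 10 to 56 in oligodendrocyte-like nuclei (56 without the LPS female) and 0 to 28 in interneurons (28 without the control male). The lone library left in a group is then assumed to vary like the other group.

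Leaving out each library gave log2 fold changes in the granule lineage of -0.42 to 0.19 for NFIA, -0.77 to 0.52 for NFIB, -0.98 to 0.52 for NFIC and -0.55 to 0.16 for NFIX. In astroglia they were -0.52 to 0.25, -0.91 to 0.44, -0.97 to 0.69 and -0.20 to 0.18 in the same order. In oligodendrocyte-like nuclei NFIB ran from -0.54 to 0.25, NFIC from -0.57 to 0.45 and NFIX from -0.34 to 0.57. In interneurons they were -0.78 to 0.15, -1.01 to 0.16, -0.87 to 0.78 and -0.57 to 0.0601.

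Fits on single granule classes are given only where their sign differed from that of the whole lineage. That fit was below 0 for all 4 genes. Over 19 alternatives per gene, those without 1 library included, the other sign came up 6 times for NFIA and 10 for NFIB. It came up 1 time for NFIC and 4 times for NFIX. NFIA was 0.0835 in proliferating precursors, 0.0528 in committing and 0.0019 in migrating GCs, and 0.0045 with stages at equal weight. NFIB was 0.11, 0.0103, 0.0480, 0.0436 and 0.0492 in proliferating precursors, committing, migrating, maturing and mature GCs and 0.049998 with stages at equal weight. In classes added after seeing the data, it was 0.0453 in the KIAA1217 ERBB4 cluster and 0.0035 in the TRPC7 HCRTR2 cluster. NFIX was 0.0559 in mature GCs and 0.0641 in the TRPC7 HCRTR2 cluster.

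In the other compartments too, only alternatives with the other sign are given here. With free RNA subtracted NFIC in astroglia was 0.11. Without a filter NFIX in astroglia was -0.0329 and NFIA in oligodendrocyte-like nuclei 0.0046. With doublets removed NFIX in astroglia was -0.0059, and in oligodendrocyte-like nuclei NFIA was 0.19 and NFIB 0.0056.

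Among class differences, free RNA subtraction moved mature over precursor GCs to -1.26 for NFIA, -1.96 for NFIB and -1.03 for NFIX, and TMM scaling to -0.80, -1.32, -1.78 and -0.59 for NFIA, NFIB, NFIC and NFIX. Astroglia over granule lineage for NFIA was 0.11 after free RNA subtraction and 0.0542 with TMM. Interneurons over granule lineage for NFIX was -0.46 with doublets removed and -0.46 with free RNA subtracted. Oligodendrocyte-like nuclei over astroglia was -2.05 for NFIA and -2.26 for NFIB with free RNA subtracted.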

Other observations

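The low-UMI cluster left unnamed held 2053 CPM of NFIA in the control female, 2457 in the control male, 2982 in the LPS female and 2689 in the LPS male, and 2687, 1856, 2530 and 1990 CPM of NFIB. Free RNA was estimated at 50.4% to 90.7% of its UMIs. Unipolar brush cell-like nuclei, excitatory interneurons of the granular layer, had 10 or more nuclei in 2 libraries, with 1266 CPM of NFIA in the control female and 1051 in the LPS male, and 1260 and 504 CPM of NFIB. Choroid or ependymal-like nuclei gave a level only in the LPS libraries, where NFIA stood at 1977 CPM in the female and 2085 in the male.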
